A study of Sus scrofa with 8 samples.

Results

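Genes that low oxygen is known to induce outside the glycolytic pathway were examined in pig heart. The set was a list of 48 symbols, matched to the gene names of the deposited expression table. It found 39 genes among the 18975 in the table. Of these, 32 reached at least 1 FPKM (fragments per kilobase of transcript, scaled to the mapped fragments of the library, so a level per length) in at least 2 libraries and were tested together with the 11913 genes that did so. The study profiled heart RNA of male pigs killed at 6 months of age in 4 groups, which were Tibetan pigs raised in the highlands at 3000 m (TH) or the lowlands at 100 m (TL) and Yorkshire pigs raised at the same altitudes (YH and YL). Each group had 2 libraries, and each library was a pool of 4 pigs, so the spread within a group is that between pools and not between animals. Highland and lowland pigs were kept at different places, and altitude and place cannot be told apart. The comparison of interest was highland against lowland within each breed.

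When oxygen falls, the prolyl hydroxylases that mark the alpha subunits of the hypoxia-inducible factors (HIFs) for destruction lose activity. The stabilised subunits then pair with ARNT and switch on genes by binding hypoxia response elements. Beside the glycolytic enzymes, the targets include receptors of mitophagy, enzymes that hydroxylate collagen, histone demethylases, secreted hormones, and genes of iron and acid handling. Several of them also answer to fasting, glucocorticoids or stress, so their RNA is not a pure reading of oxygen.

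The 8 libraries held 15686819 to 26722605 reads on genes. Mitochondrially encoded genes took 57.7% to 87.6% of the FPKM sum of a library. The 10 cardiomyocyte markers found were detected in every library, with a summed level from 17832 FPKM in YL2 to 45567 FPKM in TH1. Of the 10, 9 were lower in TH than in TL, with a median log2 fold change of -0.70 and an unadjusted limma p under 0.05 for 3, and 9 were higher in YH than in YL, with a median of 0.37 that went to -0.26 without YL2. YL2 stood apart, since 26 kidney genes summed to 12099 FPKM there and to 39.0 to 55.2 FPKM in the other 7 libraries, and 25 of the 26 were more than 2 times higher than in every other library. Liver markers summed to 162.2 FPKM in YL2, 49.7 in YL1 and 17.5 and 16.2 in YH1 and YH2, and all 8 tested were lower in YH than in YL. Their median log2 fold change was -1.41, and without YL2 it was -1.37, with an unadjusted limma p under 0.05 for 5 of the 8, so leaving out YL2 does not remove this difference. Because of YL2, the Yorkshire altitude differences printed for members are also given without YL2, in which case YL1 stands alone and is assumed to vary like the other groups. Atrial markers summed to 11626 and 8685 FPKM in TH1 and TH2, against 1602 and 2778 FPKM in TL1 and TL2, though of the 10 genes in this sum 6 were higher and 4 lower in TH. Smooth muscle markers summed to 9526 and 6206 FPKM in TH1 and TH2 against 1625 and 2047 FPKM in TL1 and TL2, with 5 genes higher and 5 lower, and adipocyte markers to 3.12 and 4.20 FPKM in TH1 and TH2 against 12.3 and 9.95 FPKM in TL1 and TL2. In Yorkshire pigs, leukocyte markers summed to 50.6 and 66.7 FPKM in YH1 and YH2 against 32.4 and 28.2 FPKM in YL1 and YL2, with 11 of 11 tested genes higher in YH, and 10 of 10 endothelial, 10 of 10 smooth muscle and 10 of 11 fibroblast genes tested were also higher in YH. Erythroid markers summed to 3115 and 1635 FPKM in TH1 and TH2 against 1240 and 1409 FPKM in TL1 and TL2. In Yorkshire pigs the sums were 1069 and 1033 FPKM in YH1 and YH2 against 635 and 533 FPKM in YL1 and YL2. Of 5 erythroid genes tested, 5 were higher in TH than in TL, and 4 were higher and 1 lower in YH. Averaged over the breeds, 4 of the 5 passed an unadjusted limma p under 0.05, against 7.22% of all genes. The part of these differences in the results below was not tested. In bulk tissue, fewer cells of a type and less RNA per cell cannot be told apart.

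The members differed widely in level. Over the 8 libraries, 4 members had a mean of at least 100 FPKM, namely *TXNIP*, *FAM162A*, *MIF* and *HIGD1A*. Another 14 lay between 10 and 100 FPKM, 16 between 1 and 10 FPKM, and 5 under 1 FPKM. *TXNIP*, which encodes an inhibitor of thioredoxin and of glucose uptake, was the highest with a mean of 382 FPKM. *EPO*, the red cell hormone made mainly by the kidney in adults, was the lowest, at 0 in 7 libraries and at 0.0492 FPKM, or 2 reads, in YL2. The median of log2(FPKM + 1) over the 32 tested members lay between 3.37 in YH2 and 3.68 in YL2.

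**Figure D1:**
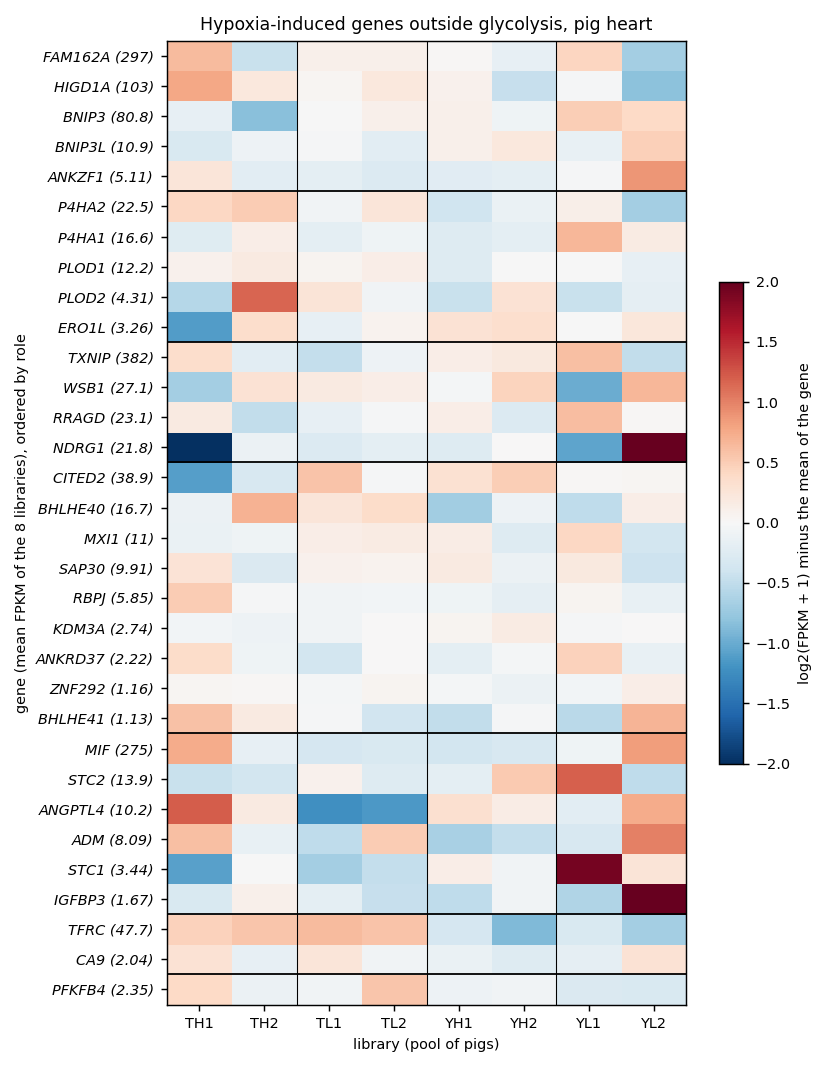
Level of the 32 tested members in each library (columns) as log2(FPKM + 1) minus the mean of that gene over the 8 libraries, with genes (rows) ordered by role and the mean FPKM in brackets; the colour scale ends at -2 and 2. Few rows split by altitude, and the darkest cells belong to single libraries, such as *NDRG1* in TH1 and YL2, *IGFBP3* in YL2 and *STC1* in YL1.

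No member passed the thresholds of the study for altitude in either breed, which are 0.01 for the adjusted p and 1 for the size of the log2 fold change. In TH *vs*. TL, 0 of 32 members were called, where 6 of all 11913 genes were (0.0504%). In YH *vs*. YL, 0 members and 0 genes in all were called (0%). The lowest adjusted p of a member was 0.220 in TH *vs*. TL and 0.784 in YH *vs*. YL (limma, Benjamini-Hochberg over all genes tested). A limma fit of the scaled reads on each gene in place of FPKM also called 0 members in both comparisons. It used another filter, which kept 35 members and 13775 genes. At an unadjusted limma p under 0.05, 2 members (6.25%) passed in TH *vs*. TL, against 11.3% of all genes, and 1 member (3.13%) passed in YH *vs*. YL, against 5.97% of all genes. With all 8 libraries, the share of members passing was thus no larger than that of genes at large. Without YL2, 4 members (12.5%) passed in YH *vs*. YL, against 5.45% of all genes, with *WSB1* higher and *P4HA1*, *STC1* and *STC2* lower in YH, and the lowest adjusted p of a member was 0.490 (limma). Without YL1, which leaves YL2 as the lone YL library, 6 members (18.8%) passed, against 25.3% of all genes, namely *ADM*, *ANKZF1*, *BHLHE41*, *IGFBP3*, *MIF* and *NDRG1*. The lowest adjusted p of a member was then 0.0101, that of *IGFBP3* (limma), and 305 of all genes were called. Without TH1, 3 members (9.38%) passed in TH *vs*. TL, namely *ANGPTL4*, *BNIP3* and *PLOD2*, against 8.34% of all genes, and *CITED2* did not. Without TH2, 5 members (15.6%) passed, *ANGPTL4*, *CITED2*, *ERO1L*, *MIF* and *RBPJ*, against 22.9% of all genes. With each of the 8 libraries left out in turn, the log2 fold change in TH *vs*. TL ran from 1.36 to 2.39 for *ANGPTL4*. It ran from -1.38 to -0.59 for *CITED2*, and from -0.89 to -0.39 for *P4HA1* in YH *vs*. YL. Leaving out a library of the other breed does not change these values, so such fits say nothing about their stability.

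The members split evenly by direction in Tibetan pigs, and more of them were lower than higher in highland Yorkshire pigs. In TH *vs*. TL, 16 members were higher and 16 lower in TH, and the median log2 fold change was 0.01, beside -0.02 for all genes tested. With libraries scaled to the FPKM sum without mitochondrial genes it was -0.15, beside -0.16 for all genes. In YH *vs*. YL, 11 members were higher and 21 lower in YH, with a median of -0.10, beside 0.03 for all genes. The Yorkshire median was -0.17 without YL2 and -0.04 without YL1. On the scaled reads of all 8 libraries it was -0.33, beside -0.03 for all genes. That fit covers 35 members and 13775 genes, so the gene set changed along with the measure. Leaving out 1 library turned the sign of the fold change in at least 1 fit for 16 members (50%) in TH *vs*. TL, against 41.9% of all genes, and for 19 (59.4%) in YH *vs*. YL, against 51.8% of all genes. It moved the value by over 1.5 times for 30 and 29 members, so single fold changes below are loosely fixed. Fold changes are on the log2(FPKM + 1) scale and understate the change of low genes. Averaged over the breeds, 0 members were called, as were 0.0336% of all genes, and 2 members, *ANGPTL4* (higher) and *BNIP3* (lower), passed an unadjusted p under 0.05, against 7.22% of all genes. The averages of *P4HA1*, *STC1* and *STC2* were -0.28, -0.51 and -0.25 with all 8 libraries. They were -0.40, -0.93 and -0.68 without YL2, and -0.15, -0.10 and 0.17 without YL1.

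The libraries of TH and TL did not overlap for 10 of the 32 members (31.3%), 5 higher and 5 lower in TH. Among all genes this share was 48.5%. The libraries of YH and YL did not overlap for 10 members, 4 higher and 6 lower in YH, where the share of all genes was 36.3%. *BNIP3* alone was apart in the same direction in both breeds, as were 6.33% of all genes. *CITED2* and *MIF* were apart in opposite directions, as were 11.3% of all genes.

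The design bounded the size of a change for part of the module. The 95% interval of the log2 fold change lay within 1 of zero for 13 of the 32 members (40.6%) in TH *vs*. TL, and for 46.1% of all genes. In the fit without YL2, whose shared spread is smaller, it did so for 20 members and for 7080 of all genes. In YH *vs*. YL it did so for 12 members (37.5%), or 10 without YL2, and for 51.8% of all genes. Averaged over the breeds, 25 members (78.1%) and 77.7% of all genes had such an interval. For the remaining members the interval reached past 1 on at least one side, so a change of 2-fold was not excluded with 2 pools per group. *KDM3A*, a histone demethylase, was among the most tightly bounded, with an interval from -0.48 to 0.39 in TH *vs*. TL.

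**Figure D2:**
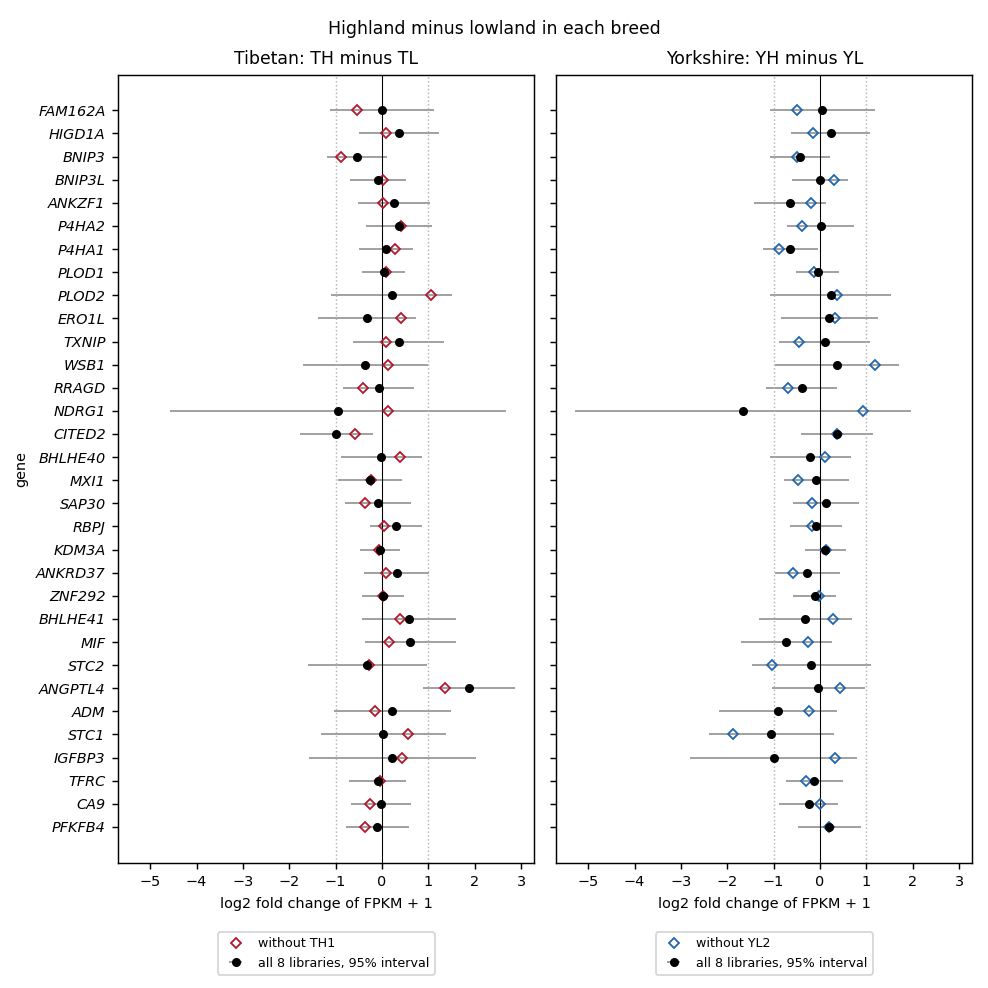
Log2 fold change of FPKM + 1 between highland and lowland pigs for the 32 tested members, Tibetan on the left and Yorkshire on the right; black points with grey 95% intervals use all 8 libraries, diamonds leave out TH1 (left) or YL2 (right), and dotted lines mark -1 and 1. Only *ANGPTL4* and *CITED2* on the left and *P4HA1* on the right have intervals that leave out 0, and the diamonds of *NDRG1*, *IGFBP3*, *STC2*, *STC1*, *WSB1* and *ADM* lie far from their points in the Yorkshire panel.

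Among the secreted factors, *ANGPTL4* differed most in Tibetan pigs. It encodes a secreted inhibitor of lipoprotein lipase that is induced by PPAR signalling and fasting as well as by HIF. Its levels were 21.5 and 10.04 FPKM in TH1 and TH2, 3.16 and 3.42 in TL1 and TL2, 11.2 and 9.78 in YH1 and YH2, and 7.43 and 15.3 in YL1 and YL2. Both TH libraries lay above both TL libraries, while YH lay inside the range of YL. TL was the low group, and the other 6 libraries ran from 7.43 to 21.5 FPKM. The mean was 15.8 ± 8.13 FPKM in TH and 3.29 ± 0.182 in TL (SD, n = 2), a ratio of 4.80. The log2 fold change of 1.88 (SE 0.42) had an adjusted p of 0.220 (limma, Benjamini-Hochberg). It was 1.36 without TH1. In YH *vs*. YL the log2 fold change was -0.03 (SE 0.42), and 0.44 without YL2. The difference of the altitude effects between the breeds was 1.91 (SE 0.60), with an adjusted p of 0.364 (limma, Benjamini-Hochberg). The gene lies on chromosome 2 at 71271943 to 71279720 (Sscrofa10.2), and its level rested on 188 to 1257 reads per library.

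The stanniocalcins, hormones first known from calcium regulation in fish, were high in YL1. *STC1* stood at 12.6 FPKM in YL1 and 3.32 in YL2, against 2.96 and 2.45 in YH1 and YH2. It was 0.710 and 2.58 FPKM in TH1 and TH2 and 1.26 and 1.597 in TL1 and TL2. Both YL libraries were above both YH libraries, but YL1 accounted for most of the gap. In YH *vs*. YL its log2 fold change was -1.05 (SE 0.57), with an adjusted p of 0.784 (limma, Benjamini-Hochberg). It was -1.88 without YL2, with an adjusted p of 0.490, and -0.23 without YL1. *STC2*, picked after its values were seen, had the same outlying library, with 30.4 FPKM in YL1 against 8.66 to 18.7 FPKM in the other 7. Its log2 fold change in YH *vs*. YL was -0.18, and it went to -1.03 without YL2 and to 0.67 without YL1.

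*MIF*, a cytokine stored ready-made in many cells, was abundant throughout. It measured 436 and 231 FPKM in TH1 and TH2, 206 and 209 in TL1 and TL2, 201 and 207 in YH1 and YH2, and 245 and 466 in YL1 and YL2. TH1 and YL2 were the high libraries, and the other 6 lay between 201 and 245 FPKM. Its log2 fold change was 0.61 (SE 0.41) in TH *vs*. TL and 0.16 without TH1. It was -0.73 (SE 0.41) in YH *vs*. YL and -0.26 without YL2. Adjusted p-values were 0.622 and 0.784 (limma, Benjamini-Hochberg).

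The remaining secreted factors were low or turned on YL2. *ADM*, which encodes the vasodilator adrenomedullin, ran from 4.30 FPKM in YH1 to 15.8 FPKM in YL2. Its log2 fold change in YH *vs*. YL was -0.91, and -0.24 without YL2. It was picked after its values were seen. *IGFBP3*, a carrier of insulin-like growth factors, was at 0.416 to 1.31 FPKM in 7 libraries and at 7.84 FPKM in YL2. Its log2 fold change in YH *vs*. YL moved from -1.0 to 0.32 when YL2 was left out. *IGFBP1* reached at most 0.267 FPKM, or 6 reads, and *EPOR*, the erythropoietin receptor, 0.124 to 0.671 FPKM. Over the 6 secreted factors tested, 5 were higher and 1 lower in TH than in TL, where 5717 of all genes were higher and 6196 lower. Of the 5, *ADM* turned from 0.22 to -0.16 without TH1 and to -0.29 without TL1, and *STC1*, at 0.03, turned negative in other scalings, with a lower pseudocount and without TH2 or TL1. In Yorkshire pigs 0 were higher and 6 lower in YH than in YL, where 6432 of all genes were higher and 5481 lower, but 3 of the 6 turned with 1 library. *ANGPTL4* was higher in YH on the scaled reads, at 0.0453, and without YL2 or YH2, *IGFBP3* without YL2, and *STC2* without YL1 or YH1.

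Of the members grouped here under transcription and chromatin, *CITED2* was the only one under an unadjusted limma p of 0.05 for altitude with all 8 libraries. It encodes a HIF target that competes with HIF for the coactivators CBP and p300, and so acts as a brake. Its levels were 16.6 and 29.5 FPKM in TH1 and TH2, 55.4 and 36.2 in TL1 and TL2, 45.7 and 52.0 in YH1 and YH2, and 37.5 and 38.1 in YL1 and YL2. TH was the low group, and its libraries lay under all 6 others. In Yorkshire pigs the order was the opposite, with both YH libraries above both YL libraries. The mean was 23.0 ± 9.08 FPKM in TH and 45.8 ± 13.6 in TL (SD, n = 2). The log2 fold change of -0.98 (SE 0.33) had an adjusted p of 0.333 (limma, Benjamini-Hochberg), and was -0.59 without TH1. In YH *vs*. YL it was 0.36 (SE 0.33), and 0.37 without YL2. The difference of the altitude effects was -1.34 (SE 0.46), with an adjusted p of 0.391 (limma, Benjamini-Hochberg). *CITED2* lies on chromosome 1 at 28295772 to 28296594, and 218 to 1142 reads supported it.

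*BHLHE40*, a clock-linked repressor of transcription, was at 14.6 and 26.4 FPKM in TH1 and TH2, 19.0 and 20.8 in TL1 and TL2, 9.54 and 14.8 in YH1 and YH2, and 10.98 and 17.5 in YL1 and YL2. The highland and lowland libraries overlapped in both breeds. The other 7 tested members of this group were *BHLHE41*, *MXI1*, *SAP30*, *RBPJ*, *KDM3A*, *ANKRD37* and *ZNF292*. Their log2 fold changes ran from -0.26 to 0.59 in TH *vs*. TL. In YH *vs*. YL they ran from -0.32 to 0.13, or from -0.57 to 0.29 without YL2. *BHLHE41*, at -0.32 and 0.29, and *SAP30*, at 0.13 and -0.17, changed sign. *RORA* was at 0.271 to 1.19 FPKM and *SPAG4* at 0 to 0.0790 FPKM, both too low to be tested.

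Of the mitochondrial members, *BNIP3* was apart by altitude in both breeds. *BNIP3*, a receptor that tags mitochondria for autophagy, measured 69.6 and 43.3 FPKM in TH1 and TH2, 77.9 and 84.0 in TL1 and TL2, 84.5 and 73.4 in YH1 and YH2, and 111 and 103 in YL1 and YL2. The highland libraries were under the lowland libraries in each breed. Of all genes, 6.33% were apart in the same direction in both breeds, and the cause for *BNIP3* was not tested. The log2 fold change was -0.55 (SE 0.27) in TH *vs*. TL and -0.44 (SE 0.27) in YH *vs*. YL, or -0.49 without YL2. In TH *vs*. TL it ran from -0.89 without TH1 to -0.21 without TH2. Averaged over the breeds it was -0.49 (SE 0.19), with an adjusted p of 0.641 (limma, Benjamini-Hochberg). With 1 library left out the average ran from -0.66 without TH1 to -0.32 without TH2, and its unadjusted p was under 0.05 in 2 of the 8 fits, those without TH1 or YL2. *BNIP3* lies on chromosome 14 at 152194733 to 152204810, with 1460 to 5471 reads per library.

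*FAM162A*, a mitochondrial protein linked to cell death in hypoxia, was at 444 and 210 FPKM in TH1 and TH2, 307 and 306 in TL1 and TL2, 291 and 255 in YH1 and YH2, and 386 and 179 in YL1 and YL2. *HIGD1A*, which assists cytochrome c oxidase, was at 168 and 114 FPKM in TH1 and TH2, 101 and 114 in TL1 and TL2, 104 and 71.1 in YH1 and YH2, and 96.2 and 55.3 in YL1 and YL2. For both genes TH1 was the highest library and YL2 the lowest, and the altitude groups overlapped. For *HIGD1A* the log2 fold change was 0.36 (SE 0.36) in TH *vs*. TL, or 0.083 without TH1, and 0.23 (SE 0.36) in YH *vs*. YL, or -0.16 without YL2. *BNIP3L*, the paralog of *BNIP3*, had log2 fold changes of -0.09 and -0.01, the latter 0.30 without YL2. *ANKZF1*, which acts in ribosome quality control at mitochondria, had 0.25, or 0.026 without TH1, and -0.64, or -0.19 without YL2.

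Among the enzymes that modify collagen, only *P4HA1* passed an unadjusted limma p of 0.05 with all 8 libraries, and only in Yorkshire pigs. It encodes a catalytic subunit of collagen prolyl 4-hydroxylase. Its levels were 13.5 and 17.9 FPKM in TH1 and TH2, 14.0 and 15.2 in TL1 and TL2, 13.4 and 14.0 in YH1 and YH2, and 26.2 and 18.3 in YL1 and YL2. Here YL was the high group, and the other 6 libraries lay between 13.4 and 17.9 FPKM. The mean was 13.7 ± 0.458 FPKM in YH and 22.2 ± 5.60 in YL (SD, n = 2). The log2 fold change of -0.64 (SE 0.25) had an adjusted p of 0.784 (limma, Benjamini-Hochberg). It was -0.89 without YL2, with an adjusted p of 0.603, and -0.39 without YL1. In TH *vs*. TL it was 0.08 (SE 0.25). The gene lies on chromosome 14 at 81892548 to 82002822.

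The sister subunit *P4HA2* was at 29.2 and 31.3 FPKM in TH1 and TH2, 20.7 and 26.1 in TL1 and TL2, 16.3 and 19.8 in YH1 and YH2, and 23.7 and 13.2 in YL1 and YL2. The TH libraries were above the TL libraries, with a log2 fold change of 0.37 (SE 0.30). Those of YH lay inside the range of YL, with a log2 fold change of 0.02, or -0.38 without YL2. *PLOD1*, *PLOD2* and *ERO1L*, of lysyl hydroxylation and oxidative folding, had log2 fold changes from -0.33 to 0.21 in TH *vs*. TL and from -0.05 to 0.23 in YH *vs*. YL, or from -0.13 to 0.36 without YL2. Without TH1, *PLOD2* moved from 0.21 to 1.07 and *ERO1L* from -0.33 to 0.40 in TH *vs*. TL. *PLOD2* and *ERO1L* were lowest in TH1, at 2.33 and 0.892 FPKM.

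**Figure D3:**
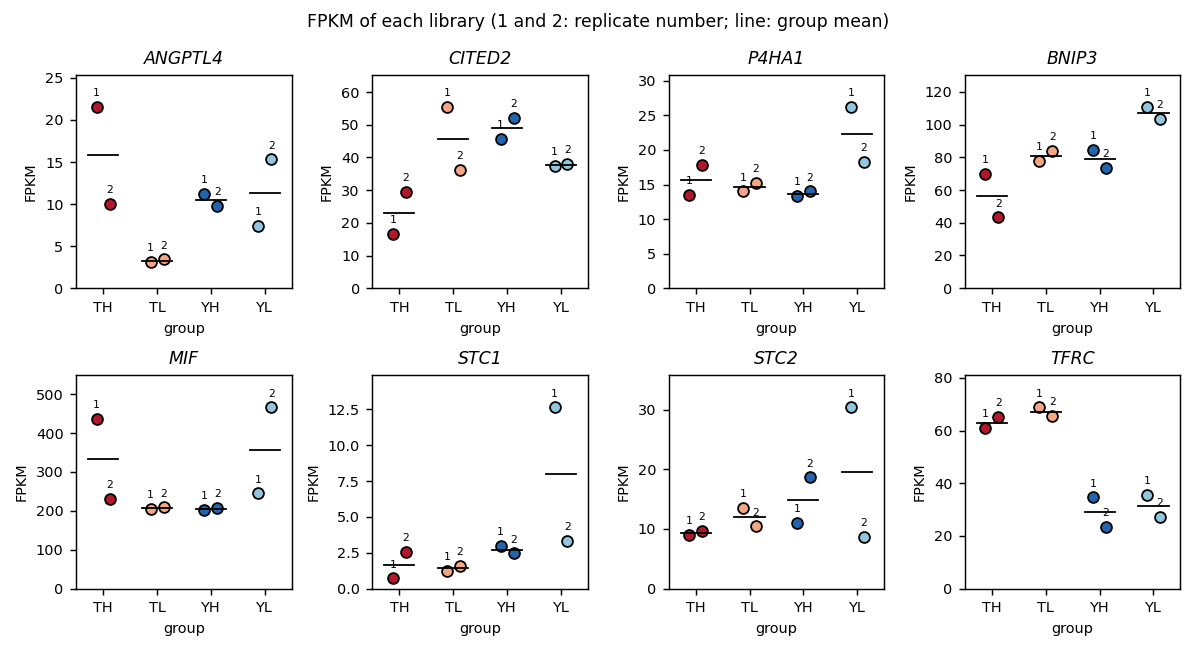
FPKM (y axis, linear from 0) of 8 members in the 4 groups; each point is 1 library, labelled by its replicate number, and the line is the group mean of 2. *ANGPTL4* is low in TL alone, *CITED2* low in TH, *P4HA1* high in YL, *BNIP3* lower in the highland group of each breed, and *TFRC* splits by breed, while the high points of *MIF*, *STC1* and *STC2* are single libraries.

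No member of growth restraint and stress passed an unadjusted limma p of 0.05 for altitude with all 8 libraries. *TXNIP* was at 473 and 320 FPKM in TH1 and TH2, 266 and 345 in TL1 and TL2, 404 and 422 in YH1 and YH2, and 563 and 263 in YL1 and YL2. *WSB1*, part of a ubiquitin ligase, was at 15.5 and 31.1 FPKM in TH1 and TH2, 28.9 and 28.05 in TL1 and TL2, 24.7 and 35.1 in YH1 and YH2, and 12.3 and 41.0 in YL1 and YL2. *RRAGD*, a GTPase of amino acid sensing, was at 25.6 and 15.7 FPKM in TH1 and TH2, 20.1 and 22.2 in TL1 and TL2, 24.8 and 18.4 in YH1 and YH2, and 35.3 and 22.8 in YL1 and YL2. Highland and lowland libraries overlapped for all 3 genes in both breeds. Leaving out YL2 set the Yorkshire log2 fold change of *WSB1* at 1.20, from 0.37, with an adjusted p of 0.826 (limma, Benjamini-Hochberg).

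*NDRG1*, a stress gene often used as a read-out of HIF, depended on YL2. It was at 0.704 and 6.48 FPKM in TH1 and TH2, 5.68 and 6.07 in TL1 and TL2, 5.78 and 7.17 in YH1 and YH2, and 2.90 and 140 in YL1 and YL2. The YL2 level was far over all others, and TH1 was the lowest, with 14 reads. In YH *vs*. YL the log2 fold change was -1.65 (SE 1.53), and 0.93 without YL2. In TH *vs*. TL it was -0.94 (SE 1.53), and 0.12 without TH1.

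Genes of iron and acid handling held the other members that stood out in YL2. *TF*, the iron carrier transferrin, was at 0.0166 to 0.405 FPKM in 7 libraries and at 42.2 FPKM in YL2. *CA12*, a membrane carbonic anhydrase, was at 0 to 0.0739 FPKM in 7 libraries and at 41.8 FPKM in YL2. Both missed the filter, since only YL2 was over 1 FPKM. Together with *NDRG1* and *IGFBP3* they made 4 of the 39 members with at least 1 FPKM and over 2 times the level of every other library in YL2, where 8.80% of all genes did so. The kidney markers were high in the same library, and their part in these 4 genes was not tested. *CA9*, the carbonic anhydrase most used as a HIF marker, was at 1.52 to 2.67 FPKM over the 8 libraries, with log2 fold changes of -0.02 in TH *vs*. TL and -0.25 in YH *vs*. YL, or -0.01 without YL2.

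**Figure D4:**
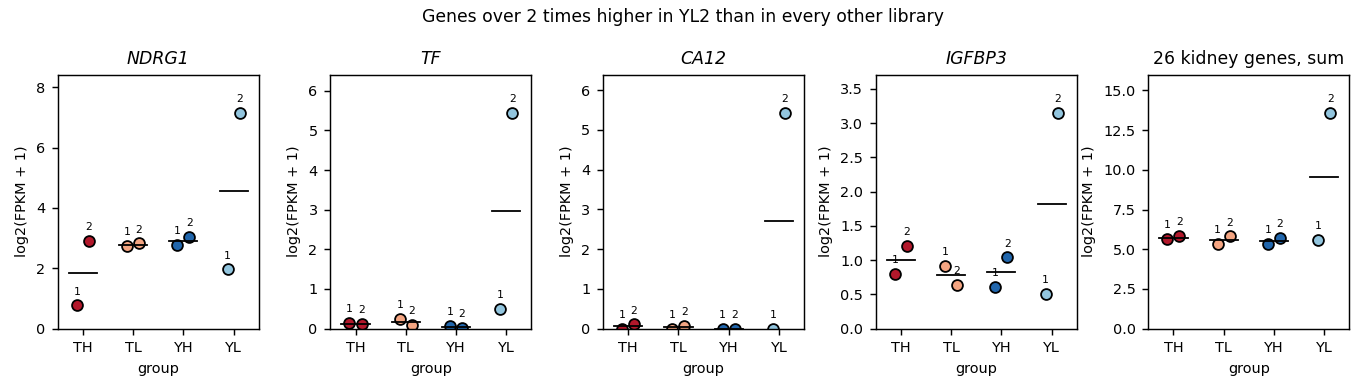
Level as log2(FPKM + 1) in each library (points, labelled by replicate number; line, group mean of log2 values) of the 4 members that stood out in YL2, beside the sum of 26 kidney genes. In every panel YL2 is the highest library, and for *TF* and *CA12* the other 7 lie at or under 0.405 FPKM.

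*TFRC*, the transferrin receptor that takes up iron, split by breed. It was at 61.0 and 65.2 FPKM in TH1 and TH2, 68.8 and 65.6 in TL1 and TL2, 34.6 and 23.4 in YH1 and YH2, and 35.5 and 27.1 in YL1 and YL2. Every Tibetan library was above every Yorkshire library, and by a small gap the TH libraries lay under the TL libraries. TH was 2.17 times YH, with a log2 fold change of 1.12 (SE 0.26) and an adjusted p of 0.141 (limma, Benjamini-Hochberg). TL was 2.15 times YL, with 1.09 (SE 0.26) and an adjusted p of 0.284, and 0.90 without YL2. Altitude gave log2 fold changes of -0.09 in TH *vs*. TL and -0.12 in YH *vs*. YL, or -0.31 without YL2. Erythroid markers, the sum of 8 genes, were also higher in every Tibetan library (1240 to 3115 FPKM) than in every Yorkshire library (533 to 1069 FPKM). The sum of 13 immediate early genes split the same way, at 685 to 1052 FPKM against 141 to 240 FPKM. The part of either list in the level of *TFRC* was not tested.

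Between breeds, 0 members were called at high altitude, where 0.0336% of all genes were, and 0 at low altitude, where 0.00839% of all genes were. At an unadjusted limma p under 0.05, *TFRC* and *CITED2* passed in TH *vs*. YH, against 16.2% of all genes. *TFRC*, *ANGPTL4* and *STC1* passed in TL *vs*. YL, against 8.94% of all genes. That count of 3 moved to 6 members (18.8%) without YL2, against 9.72% of all genes, *ANGPTL4* no longer among them, and to 10 members (31.3%) without YL1, against 25.5%. In TH *vs*. YH, 4 members (12.5%) passed without TH1, against 9.17% of all genes, and 5 (15.6%) without TH2, against 29.2%. The difference of the altitude effects between the breeds called 0 members and 0.0336% of all genes. *ANGPTL4* and *CITED2* passed an unadjusted p under 0.05 there, against 10.9% of all genes. Without YL2, 5 members (15.6%) passed, against 12.8% of all genes, without YL1 8 members (25%), against 24.9%, and without TH2 5 members (15.6%), against 22.8%.

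Single libraries set many of the extremes of the module. Of the 32 tested members, 10 were highest in YL2 and 8 in YL1. Over all genes these shares were 24.7% and 7.56%. TH1 was the lowest library for 6 members and YL2 for 8, where 26.7% and 22.5% of all genes were lowest there.

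*PFKFB4*, a regulator of fructose bisphosphate, was the only tested member of sugar and lipid metabolism, at 1.67 to 3.81 FPKM. Of the 9 symbols without a match, *COX4I2*, *DDIT4*, *GBE1L*, *INSIG2* and *VLDLRL* were not analysed here. The other 4 have a row under the Ensembl identifier of the gene but with no name, and they are not counted as members. *PPP1R3C*, which targets protein phosphatase to glycogen, was at 159 and 142 FPKM in TH1 and TH2, 288 and 249 in TL1 and TL2, 142 and 129 in YH1 and YH2, and 104 and 87.2 in YL1 and YL2. TH was lower than TL, and YH higher than YL, with no overlap in either breed. Its log2 fold change was -0.83 (SE 0.23) in TH *vs*. TL, with an adjusted p of 0.272 (limma, Benjamini-Hochberg), and 0.50 (SE 0.23) in YH *vs*. YL, with an adjusted p of 0.784, or 0.38 without YL2. *KDM4B* was at 5.19 to 7.80 FPKM, *KDM4C* at 0.324 to 1.42 FPKM and *NDUFA4L2* at 0.0327 to 0.233 FPKM.

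The rest of the pathway was read from lists of its sensors and of its other targets. Of 12 tested genes for HIF subunits and oxygen sensing, 0 passed an unadjusted limma p of 0.05 in either breed, against 11.3% and 5.97% of all genes, with 5 higher and 7 lower in TH and 10 higher and 2 lower in YH. Without YL2, 1 of them, *CUL2*, passed in TH *vs*. TL, and the median log2 fold change in YH *vs*. YL went from 0.06 to -0.04. *EPAS1*, the alpha subunit most abundant here, was at 37.7 and 57.6 FPKM in TH1 and TH2, 60.3 and 64.6 in TL1 and TL2, 59.9 and 50.7 in YH1 and YH2, and 55.2 and 44.6 in YL1 and YL2. *HIF1A* was at 3.02 FPKM in TH1 and at 6.11 to 14.4 FPKM in the other libraries. Of 19 tested rows of glycolytic targets, 1 (5.26%) passed in each breed, *PFKL* in TH *vs*. TL and *PDK1* in YH *vs*. YL, both higher in the highland group. Without YL2, 3 passed in TH *vs*. TL, *PFKL* higher and *ALDOC* and *HK2* lower in TH, and 17.1% of all genes did so. *VEGFA*, the main angiogenic target, was at 56.4 and 53.6 FPKM in TH1 and TH2, 53.3 and 86.5 in TL1 and TL2, 82.0 and 77.4 in YH1 and YH2, and 71.2 and 54.0 in YL1 and YL2, with overlap between TH and TL and both YH libraries above both YL libraries. *CUL2* and these glycolytic genes are named after their values were seen, and no gene of the sensing and glycolytic lists was called in either breed.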

How the data were processed

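RNA of pig heart was sequenced by the authors in 8 libraries, who aligned reads to Sscrofa10.2 with TopHat2 2.0.9 and Bowtie 0.12.5 and tested genes with DESeq 1.10.1. The deposited table gives FPKM per gene and library, and a signal that the authors scaled from the reads on each gene. Division of that signal by its smallest step turned 99.8% of low values into whole numbers within 0.05 reads, and these reads give the depth. The 8 columns of group means and ratios, which hold the authors' comparisons, and the tables per group were not used. YL1 and YL2 were taken as YL by title and breed, though their descriptions point to another group's file.

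The model, with a term per group, used log2(FPKM + 1) in all 8 libraries (limma 3.58.1, R 4.3.3). A gene was kept where 2 or more libraries had 1 FPKM or more. P-values were adjusted over 11913 genes by the Benjamini-Hochberg method, and calls needed an adjusted p below 0.01 with a log2 fold change beyond 1 either way. An exact permutation test of 2 against 2 libraries cannot go below p = 0.333 and was not used. Tables were made with Python 3.11.15, and the fit was tested on simulated data. P-values measure only the spread between these pools.

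Members named with values by rule had an unadjusted p under 0.05 for altitude in a breed, or groups apart by over 1 on the log2 scale, or were among the 12 highest by mean FPKM, or were at 1 FPKM or more and over 2 times higher in YL2 than elsewhere. Any other gene with values was picked after its values were seen. The members, lists and tests were chosen with earlier results of these data known. Alternatives were other scalings, pseudocounts, filters, thresholds and fits, and leaving out each library. The counts over a list of vascular targets are not reported here.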

Additional observations from a re-analysis of the deposited data

Results flagged for a closer look

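For 2 members and for *PPP1R3C*, every library of TH lay on one side of TL while every library of YH lay on the other side of YL. *CITED2* was lower in TH and higher in YH than in the lowland group of the same breed, and its log2 altitude effects differed by -1.34. *MIF* was higher in TH and lower in YH, with a difference of 1.34 that rests on TH1 and YL2, since it was 0.87 without YL2. *PPP1R3C* was lower in TH and higher in YH, with a difference of -1.34. A limma test of the difference gave adjusted p-values of 0.391, 0.465 and 0.296 (Benjamini-Hochberg over all genes), so none passed. Libraries apart in opposite directions were found for 11.3% of all genes tested.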

How the results depend on the processing

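With 2 pools per group, 0 members were called in the 2 altitude comparisons, their average and their difference under every alternative run, an adjusted p under 0.05 and limma on the scaled reads (added after seeing the data) included. TL *vs*. YL called 1 member, *IGFBP3*, without YL1 (adjusted p = 0.00949, limma). A replicate block left 0 members called in all comparisons and 4 of all genes in TH *vs*. TL in place of 6. Deviations of same-numbered libraries correlated at 0.02 (TH and TL) and 0.05 (YH and YL) across genes, and the labels do not pair them. edgeR and DESeq2 on reads were not run, because some values lie under 1 step of the scaled reads. The median log2 fold change of members in TH *vs*. TL, 0.01, was -0.15 with libraries scaled to the FPKM sum without mitochondrial genes, which moved the median of all genes to -0.16, and -0.083 with median-ratio scaling. The fit of the scaled reads had another filter and covered 35 members and 13775 genes. Its member median was -0.33 in YH *vs*. YL, -0.18 averaged and 0.35 for the difference between breeds. It was 0.32 in TH *vs*. YH and -0.23 in TL *vs*. YL. FPKM-sum scaling gave -0.13 averaged, 0.043 for the difference and 0.075 in TH *vs*. YH. TH *vs*. YH gave 0.10 with no filter, 0.0859 with median-ratio scaling and 0.0542 for means of at least 10 FPKM, and TL *vs*. YL -0.17 with no filter. Leaving out 1 library gave 0.11 to 0.26 for the difference, 0.0224 to 0.24 in TH *vs*. YH, lowest without TH1, and -0.0989 to -0.01998 in TL *vs*. YL, nearest 0 without YL2. Fitted altitude effects of single genes turned sign as follows. With FPKM-sum scaling, a pseudocount of 0.1 and median-ratio scaling, *STC1* in TH *vs*. TL was -0.00462, -0.0432 and -0.00669. *P4HA1* was -0.0899 and -0.0157 with the 2 scalings. On the scaled reads, TH *vs*. TL gave 0.0188 for *BHLHE40*, 0.077 for *TFRC* and 0.0258 for *FAM162A*, and YH *vs*. YL -0.079 for *TXNIP*, -0.0988 for *HIGD1A*, 0.0453 for *ANGPTL4* and -0.10 for *FAM162A*. Median-ratio scaling gave -0.0411 for *P4HA2* and -0.0124 for *FAM162A* in YH *vs*. YL. Among the 16 members with a fitted value that the naming rule covers, leaving out each library turned the sign of 7 in TH *vs*. TL, with ranges of -0.40 to 0.26 (*RRAGD*), -2.01 to 0.12 (*NDRG1*), -0.50 to 0.56 (*STC1*), -0.11 to 0.28 (*P4HA1*), -0.42 to 0.39 (*BHLHE40*), -0.84 to 0.13 (*WSB1*) and -0.54 to 0.53 (*FAM162A*). It did so for 10 of them in YH *vs*. YL, with -4.24 to 0.93 (*NDRG1*), -0.45 to 0.65 (*TXNIP*), -0.16 to 0.63 (*HIGD1A*), -0.52 to 0.11 (*BHLHE40*), -0.39 to 0.15 (*TFRC*), -0.51 to 0.44 (*ANGPTL4*), -2.32 to 0.32 (*IGFBP3*), -0.46 to 1.20 (*WSB1*), -0.38 to 0.42 (*P4HA2*) and -0.50 to 0.61 (*FAM162A*). The causes were not tested. *ANGPTL4* in TH *vs*. TL stayed between 1.36 and 2.39, *CITED2* between -1.38 and -0.59, *BNIP3* between -0.89 and -0.21 and *HIGD1A* between 0.083 and 0.64. *EPO*, *SPAG4* and *IGFBP1* had at most 6 reads in any library, too few to compare.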
